A study of Mus musculus with 45 samples.

Results

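Acyl-CoA thioesterases are enzymes that split acyl-CoA into a free acid and coenzyme A. The 9 genes described here, Acot1, Acot2, Acot3, Acot4, Acot5, Acot7, Acot8, Acot12 and Acot13, were chosen by name among the 22080 genes of the expression table, and all 9 were found there. Each gene has 1 probe set and so 1 value on each of 45 arrays. The arrays covered liver, kidney and brain of male C57BL/6 mice, 7 weeks old when they entered the study, under 5 diets, with 3 arrays for each of the 15 combinations of tissue and diet.

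The Control group received the AIN-93 diet, and the HCD group the same diet with 0.5% cholesterol. The other groups also received the 0.5% cholesterol diet, with 1.0% of a Ganoderma lucidum extract (HCD+Gl-1 or HCD+Gl-2) or with 0.03 g of simvastatin in 100 g of food (HCD+Sim). Ganoderma lucidum is a medicinal mushroom, and simvastatin is a statin that blocks cholesterol synthesis. The mushroom behind Gl-2 grew on a substrate with 10 mM acetylsalicylic acid, and the mushroom behind Gl-1 did not. Tissue was taken on day 43, after a fast without food and water. Each diet group held 8 mice. According to the methods of the study, RNA was pooled from 4 mice for array A and from the remaining 4 for array B, and both were mixed for array C. By that account array C adds no separate animals, and p-values measure the spread between such pooled arrays. With 3 arrays against 3, an exact two-sided permutation test of a single value cannot give a p under 0.1, so tests come from a limma fit over all genes and arrays.

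Cells activate fatty acids to acyl-CoA before they burn or store them, and thioesterases reverse that step in the compartment where each enzyme sits. Acot1 works in the cytosol and Acot2 in mitochondria, both on long-chain acyl-CoA, while Acot3, Acot4, Acot5 and Acot8 are peroxisomal enzymes. Acot7 is a cytosolic enzyme known for its high level in brain, Acot12 hydrolyses acetyl-CoA in the cytosol, and Acot13 is a small thioesterase associated with mitochondria. In rodent liver, fasting and agonists of the nuclear receptor PPAR alpha are known to raise several of these genes, Acot1 among them. In bulk tissue, fewer cells of a type and less RNA per cell cannot be told apart.

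The tissue labels were checked against marker genes. All 8 liver, all 8 kidney and all 8 brain markers were measured and had their highest mean in the tissue they mark. Array medians lay between 6.76 and 6.92 on the log2 scale, and 2 arrays of a group correlated with r between 0.9846 and 0.9974 across genes. The liver HCD+Sim arrays stood apart: the mean of 12 pancreas acinar markers was 7.15 in pool A, 7.66 in pool B and 6.13 in pool C, against 5.88 to 6.03 in liver HCD. The mean of 12 skeletal muscle markers was 7.57, 7.92 and 6.55 on the same arrays, against 6.41 to 6.63 in HCD and 6.86 to 7.08 in Control. For both lists pool C lay below pools A and B, outside the range that a mix of these 2 pools would give. In HCD+Gl-2, the mean of 12 immediate early genes was 8.51, 7.17 and 8.94 in liver pools A, B and C, against 6.98 to 7.08 in liver HCD, and 8.54 to 9.02 in kidney, against 6.81 to 6.83 in kidney HCD.

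Acot1, Acot2, Acot3, Acot4 and Acot5 are neighbours on chromosome 12. In the GRCm38.p6 annotation of RefSeq, Acot2 lies at chr12:83987861-83993877, Acot1 at chr12:84009502-84017670, Acot4 at chr12:84037254-84044723, Acot3 at chr12:84052144-84060400 and Acot5 at chr12:84069077-84076024. With Acot6 the cluster spans 122 kb. Acot7 is on chromosome 4 (chr4:152178100-152271855), Acot8 on chromosome 2 (chr2:164792768-164820219), Acot12 on chromosome 13 (chr13:91741326-91786148) and Acot13 at chr13:24817955-24831489. The cluster genes are close copies of each other, and 1 probe set per gene may take up signal of a neighbour, so a difference given below for one of them is uncertain to that extent.

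The upstream sequences of Acot1 and Acot3 are shown because these 2 genes had the largest liver differences. Each is the 250 bases before the first start site of the gene, on the plus strand of GRCm38.p6, from the promoter table of RefSeq, and the capitals mark every CCAAT and its reverse complement ATTGG.
Acot1, chr12:84009252-84009501: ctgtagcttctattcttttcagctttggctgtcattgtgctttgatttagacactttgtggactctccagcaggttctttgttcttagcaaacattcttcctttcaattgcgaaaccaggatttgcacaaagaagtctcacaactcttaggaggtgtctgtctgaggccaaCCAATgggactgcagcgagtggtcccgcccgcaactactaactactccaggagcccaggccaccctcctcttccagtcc
Acot3, chr12:84051894-84052143: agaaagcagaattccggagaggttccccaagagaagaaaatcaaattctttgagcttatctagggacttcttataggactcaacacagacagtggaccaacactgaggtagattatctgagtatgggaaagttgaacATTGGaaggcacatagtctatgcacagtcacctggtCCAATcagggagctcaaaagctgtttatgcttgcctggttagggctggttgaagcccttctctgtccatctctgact
Promoter windows of 250 bases before to 50 after the start were held for 8 of the 9 genes, all except Acot13. CCAAT, searched on both strands, had 1 match in the Acot1 window and 2 in that of Acot3, and was in 37.4% of all promoter windows in the table. Among pairs of these genes, aligned windows were 49.1% to 54.7% identical, and those of Acot1 and Acot3 were 52.2% identical. The highest value was that of Acot7 and Acot12, which lie on different chromosomes. Windows of other genes were not aligned, so these values do not show a likeness between promoters. A direct repeat 1, 2 copies of AGGTCA with any single base between them, is the kind of element that PPAR alpha and its partner bind. Searched on both strands with at most 2 mismatches, it was found in 3.86% of the 32851 mouse promoters of the table and in the windows of Acot4 and Acot12 among the members. The match of Acot4 is at chr12:84038366-84038378, 13 bases before the start site of its window, with 2 mismatches. That of Acot12 is at chr13:91741411-91741423, 110 bases before the start site of its window, with 1 mismatch. These matches lie inside the gene spans given above, because the windows of both genes use a start site further along than the first base of the span. Both are on the minus strand and are shown as they read on the plus strand.
Acot4 match: TGACCTTTGGCCG
Acot12 match: TGACCTCTCACCT
The unit AGGTCA alone, on either strand, was in 16.3% of all promoters and in the windows of Acot3, Acot4, Acot5 and Acot12. These letters were not in the windows of Acot1, Acot2, Acot7 and Acot8. A match is a description of letters and was not tested as a binding site.

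The differences of these genes between tissues reached 5.01 on the log2 scale and those between diets 0.89. On the Control diet, kidney had the highest levels of Acot1, Acot2, Acot3, Acot4 and Acot13, brain the highest level of Acot7, and Acot12 was high in liver and kidney and low in brain. A gene was called differentially expressed (DE) where the log2 fold change exceeded 0.7 in size and the Benjamini-Hochberg adjusted p of limma was 0.05 or less. By that rule, 4 of 9 genes differed between liver and kidney, where 16.8% of all genes did. All 4 were lower in liver, against 10.1% of all genes lower and 6.78% higher. Between liver and brain 6 of 9 differed, 4 higher and 2 lower in liver, against 32.7% of all genes, 15.5% higher and 17.2% lower. Between kidney and brain 8 of 9 differed, 7 higher and 1 lower in kidney, against 30.0% of all genes, 15.7% higher and 14.2% lower.

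**Figure D1:**
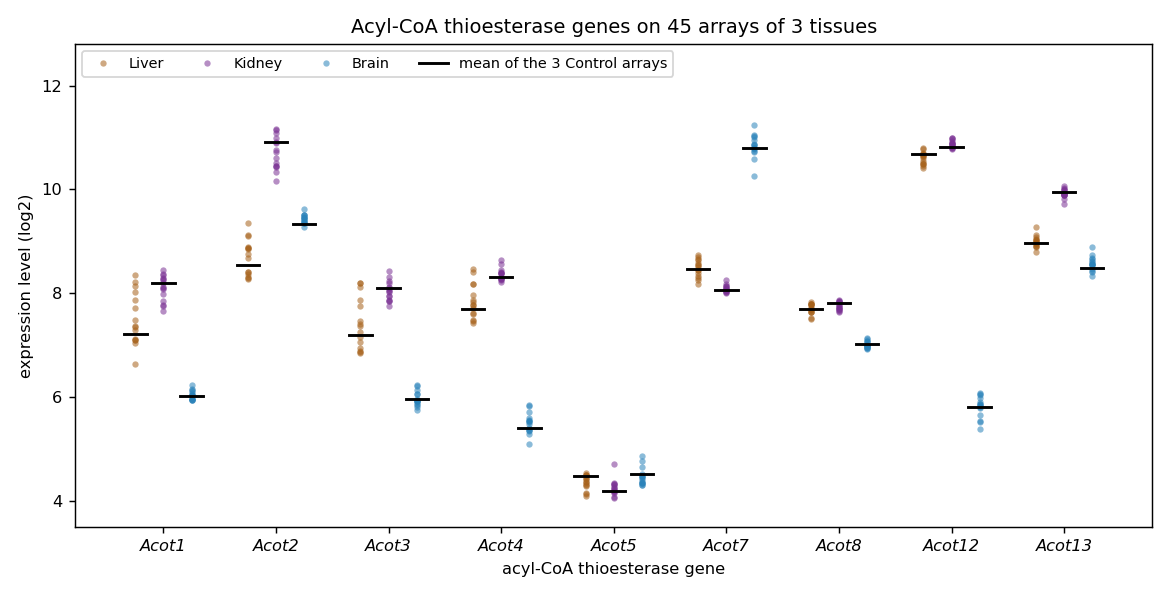
Log2 expression level (vertical axis) of the 9 genes on all 45 arrays, with 1 point per array, coloured by tissue, and a black line at the mean of the 3 Control arrays of that tissue. Acot7 was highest in brain, and Acot12 lay between 5.39 and 6.08 on every brain array and at 10.42 or more on every liver and kidney array. Heights of different genes come from different probe sets and are not comparable.

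Acot1, the cytosolic long-chain enzyme, measured 7.10, 7.10 and 7.48 (log2) in pools A, B and C of Control liver, 8.29, 8.20 and 8.08 in Control kidney and 5.97, 5.94 and 6.11 in Control brain. The 3 tissues did not overlap. Liver lay below kidney (log2 difference -0.97, SE 0.21, adjusted p = 0.000234), kidney above brain by 2.18 (adjusted p = 1.2e-11) and liver above brain by 1.22 (adjusted p = 4.4e-06).

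Acot2, its mitochondrial counterpart, had another order of tissues. It measured 8.87, 8.41 and 8.36 in Control liver, 10.99, 11.16 and 10.61 in Control kidney and 9.27, 9.35 and 9.39 in Control brain. Liver was the lowest of the 3 tissues, by 5.18-fold against kidney (log2 difference -2.37, SE 0.20, adjusted p = 2.54e-13) and by 1.72-fold against brain (log2 difference -0.79, adjusted p = 0.000635). The call against brain was lost with pools A and B only (log2 difference -0.67) and without Control liver pool C (-0.69), where the difference fell under the fold threshold.

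The peroxisomal genes Acot3 and Acot4 followed the order kidney, liver, brain. Acot3, a long-chain enzyme, averaged 7.19 ± 0.16 in Control liver, 8.10 ± 0.12 in kidney and 5.96 ± 0.23 in brain (SD, 3 arrays each), and liver lay under kidney (log2 difference -0.92, SE 0.22, adjusted p = 0.000485) and 1.22 above brain. Acot4, which acts on dicarboxylyl-CoA, averaged 7.70 ± 0.27, 8.32 ± 0.06 and 5.40 ± 0.11. Its liver level lay 2.3 above brain (SE 0.16, adjusted p = 8.26e-16) and below kidney by a difference of -0.61, with an adjusted p of 0.00172 but under the fold threshold. It passed that threshold with pools A and C only (-0.78) and without Control liver pool B (-0.75). Acot8, a peroxisomal enzyme of broad substrate range, had a narrow range among tissues, with Control means of 7.70 ± 0.15 in liver, 7.82 ± 0.05 in kidney and 7.03 ± 0.08 in brain. Kidney exceeded brain by 0.79 (SE 0.07, adjusted p = 6.14e-13), liver exceeded brain by 0.67, under the fold threshold, and liver and kidney differed by -0.12 with an adjusted p of 0.15. Acot5, a medium-chain peroxisomal enzyme, lay between 4.06 and 4.86 on all 45 arrays. Its levels were dim in all 3 tissues, and its tissue differences, between -0.33 and 0.28, stayed under the fold threshold.

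Acot12 had the largest differences between brain and the other tissues, and Acot7 was the only gene called higher in brain than in both. Acot7 measured 10.85, 10.78 and 10.73 in Control brain against 8.38, 8.34 and 8.65 in Control liver and 8.03, 8.07 and 8.10 in Control kidney. Brain exceeded liver 5.02-fold and kidney 6.58-fold (adjusted p = 3.44e-21 and 2.38e-23). Acot12 measured 10.70, 10.68 and 10.66 in Control liver and 10.80, 10.79 and 10.84 in Control kidney, against 5.51, 6.05 and 5.86 in Control brain. Liver exceeded brain 29.3-fold and kidney 32.1-fold (log2 differences 4.87 and 5.01, SE 0.12 each, adjusted p = 3.41e-31 and 1.86e-31), and liver and kidney differed by -0.13 with an adjusted p of 0.368. Acot13 had Control means of 8.96 ± 0.05 (liver), 9.94 ± 0.04 (kidney) and 8.49 ± 0.21 (brain), and liver lay below kidney (log2 difference -0.98, SE 0.09, adjusted p = 3.7e-12).

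The cholesterol diet by itself called none of the 9 genes in liver. HCD against Control gave log2 differences between -0.18 and 0.14, the lowest adjusted p was 0.653, and none of the 9 reached an unadjusted p under 0.05. Over all genes 0.245% were DE and 10.3% had an unadjusted p under 0.05. Acot12 showed the largest difference: it measured 10.49, 10.50 and 10.49 in HCD against 10.66 to 10.70 in Control. The arrays did not overlap, and the difference of -0.18 exceeded the SD of the compared arrays, 0.02 in Control and 0.01 in HCD. It did not pass the test (SE 0.12, adjusted p = 0.653), whose SE pools the spread of all groups and tissues. The SD of Acot12 was 0.19 in HCD+Gl-1 liver, 0.03 in Control kidney and 0.27 in Control brain, where its level was low. The SDs of liver Control and HCD each include pool C, a mix of A and B by the methods.

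Under simvastatin, Acot3 rose in liver, and it was the only one of the 9 genes called in any of the 12 diet comparisons over the 3 tissues. Its levels were 8.19, 7.41 and 8.12 in pools A, B and C of HCD+Sim, against 6.95, 6.84 and 7.26 in HCD. Every HCD+Sim array lay above every HCD array, with pool B the nearest to HCD. The mean difference was 0.89 on the log2 scale, or 1.85-fold (SE 0.22, 95% interval 0.45 to 1.33, adjusted p = 0.0263). Over all genes 0.258% were DE in this comparison.

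The call of Acot3 depended on which arrays entered the fit. In a fit on the 15 liver arrays the same difference had an adjusted p of 0.39, and in a fit on HCD and HCD+Sim liver alone 0.408. With pools A and B only the difference was 0.91 with an adjusted p of 0.0734, and with pools B and C only 0.71 with 0.523. Leaving out HCD pool A, HCD pool B, HCD+Sim pool A or HCD+Sim pool C, in turn, gave differences of 0.85, 0.80, 0.75 and 0.78 with adjusted p of 0.112, 0.121, 0.101 and 0.149. The call held without HCD pool C (1.01, adjusted p = 0.0284) and without HCD+Sim pool B (1.14, adjusted p = 0.00559).

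Acot1 and Acot4 showed differences in the same direction in HCD+Sim liver that did not pass the test. Acot1 measured 8.14, 7.34 and 8.21 in HCD+Sim against 7.29, 6.64 and 7.37 in HCD, a difference of 0.80 (SE 0.21, adjusted p = 0.0554), with pool B of HCD+Sim inside the range of HCD. It passed with genes under 6 left out (adjusted p = 0.0489) and without HCD pool C (0.93, adjusted p = 0.0479) or HCD+Sim pool B (1.08, adjusted p = 0.0066). Acot4 measured 8.17, 7.78 and 8.41 against 7.62, 7.77 and 7.47, arrays that did not overlap by a narrow margin, with a difference of 0.50 (SE 0.16, adjusted p = 0.15). Acot8 measured 7.80 on all 3 HCD+Sim arrays against 7.51 to 7.70 in HCD, a difference of 0.18 (SE 0.07, adjusted p = 0.246). Acot2, the cluster gene for the mitochondrial enzyme, differed by 0.18 (SE 0.20, adjusted p = 0.802), and the other 4 genes by -0.10 to 0.10. At an unadjusted p under 0.05 there were 4 of 9 genes (Acot1, Acot3, Acot4, Acot8), against 11.7% of all genes, and the arrays of 4 of 9 (Acot3, Acot4, Acot8, Acot12) did not overlap, against 13.4% of all genes.

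**Figure D2:**
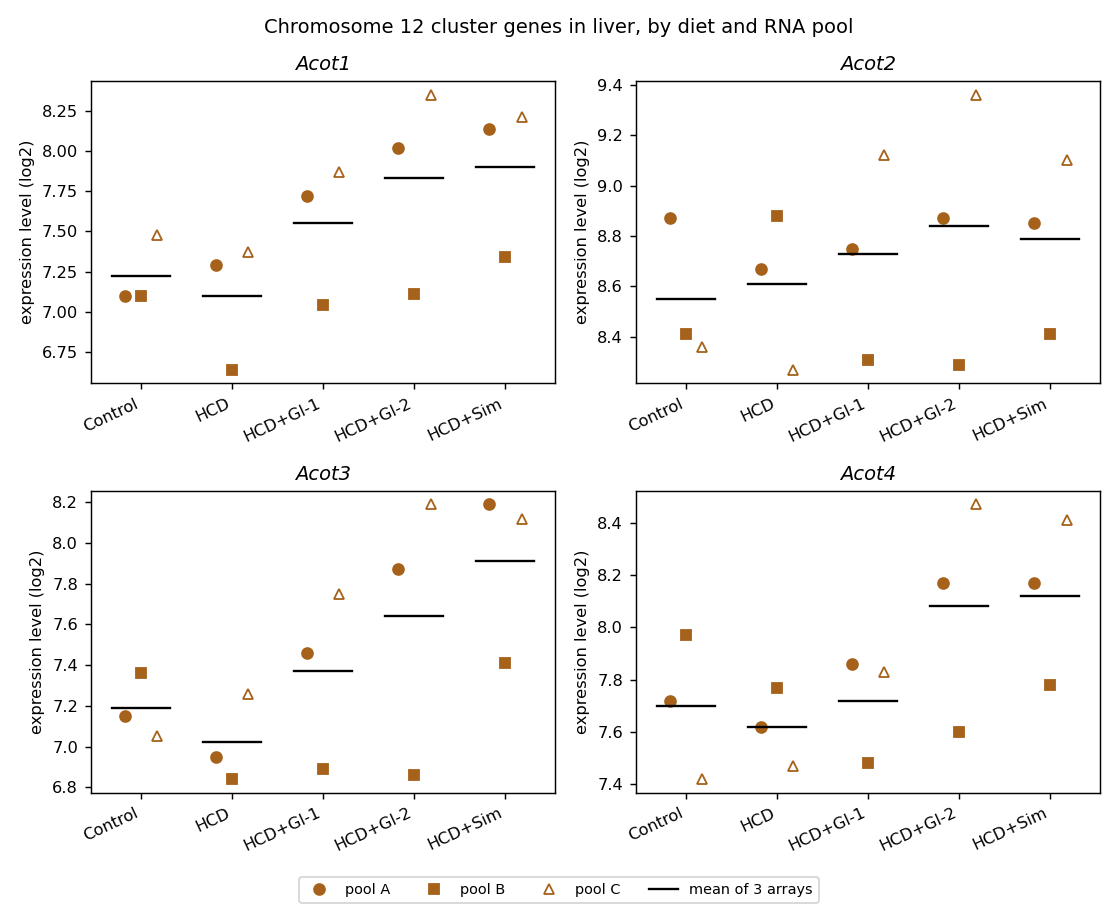
Log2 level of Acot1, Acot2, Acot3 and Acot4 in liver by diet, with pool A as filled circles, pool B as filled squares, pool C (a mix of A and B by the methods) as open triangles and the mean of the 3 arrays as a line; each panel has its own axis range. In the 3 treated groups pool B was the lowest array for all 4 genes, and Acot3 in HCD+Sim lay between 7.41 and 8.19, above all 3 HCD arrays.

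The pancreas acinar and muscle markers that stood out in HCD+Sim liver were highest in pool B and next in pool A, while Acot3 was highest in pools A and C. In pool C the acinar markers were at 6.13 and Acot3 at 8.12. Fitted without both HCD+Sim pools A and B, the difference of Acot3 was 1.1. That fit rests in HCD+Sim on pool C alone, a mix of the dropped pools by the methods, and was chosen after seeing the data. The part of the marker tissues in the Acot3 values was not tested. The acinar list had 9 of 12 genes DE and higher in HCD+Sim against HCD, and the muscle list 7 of 12.

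**Figure D3:**
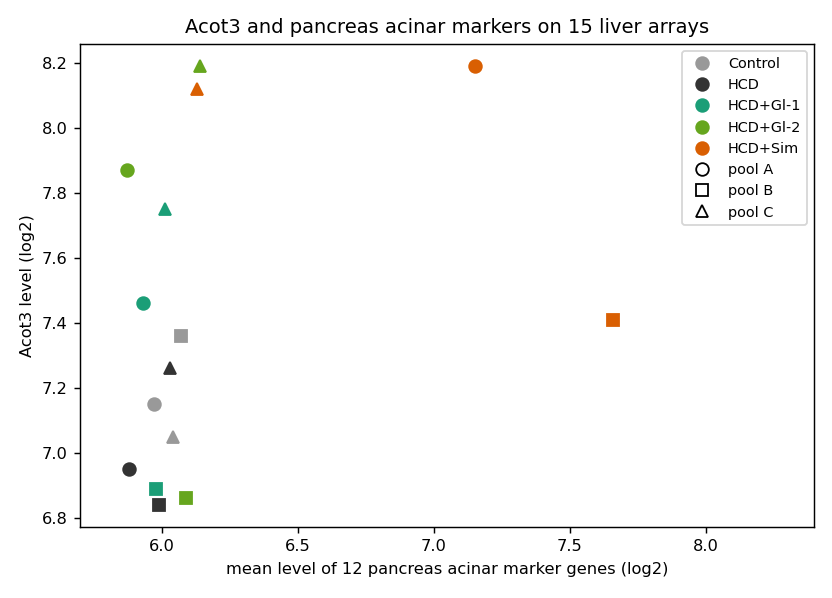
Acot3 level (log2, vertical axis) against the mean level of 12 pancreas acinar markers (log2, horizontal axis) on the 15 liver arrays, coloured by diet, with circles for pool A, squares for pool B and triangles for pool C. HCD+Sim pools A and B lay at 7.15 and 7.66 on the marker axis, and pool C at 6.13 near the other arrays with an Acot3 level of 8.12.

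HCD+Gl-2 gave liver values close to those of simvastatin for the cluster genes, with none of the 9 genes called. Acot1 measured 8.02, 7.11 and 8.35 in HCD+Gl-2, with pool B inside the HCD range of 6.64 to 7.37, and the difference from HCD was 0.73 (SE 0.21, adjusted p = 0.0793). Acot3 measured 7.87, 6.86 and 8.19, again with pool B within the HCD range, and differed by 0.63 (SE 0.22, adjusted p = 0.156). Acot4 measured 8.17, 7.60 and 8.47 and differed by 0.46 (SE 0.16, adjusted p = 0.17). These 3 were the genes at an unadjusted p under 0.05, against 12.6% of all genes, and 0.303% of all genes were DE. Single arrays moved these values in both directions. Without pool B of HCD+Gl-2, Acot1 differed by 1.09 (adjusted p = 0.000941) and Acot3 by 1.02 (adjusted p = 0.0015), and both were called. Without its pool C, Acot1 differed by 0.47 (adjusted p = 0.451) and Acot3 by 0.35 (adjusted p = 0.615), and the difference of Acot4 ran from 0.26 to 0.70 with 1 array left out. The immediate early genes, which many stimuli induce within a short time, were also lowest in pool B of HCD+Gl-2 liver, at 7.17 against 8.51 and 8.94, and their part in the result was not tested.

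HCD+Gl-1 called none of the 9 genes in liver, and its largest differences in size were those of Acot1, Acot7 and Acot3. Acot1 measured 7.72, 7.04 and 7.87, a difference of 0.45 (SE 0.21, adjusted p = 0.285), and Acot3 measured 7.46, 6.89 and 7.75, a difference of 0.35 (SE 0.22, adjusted p = 0.447). Both overlapped HCD through pool B, and with 1 array left out the differences ran from 0.22 to 0.70 for Acot1 and from 0.16 to 0.59 for Acot3. Acot7, the cytosolic enzyme best known from neurons, measured 8.17, 8.30 and 8.25 against 8.63, 8.44 and 8.74 in HCD. These arrays did not overlap, and the difference was -0.36 (SE 0.11, adjusted p = 0.0693). Acot1 and Acot7 were the 2 of 9 genes at an unadjusted p under 0.05, against 16.6% of all genes, and 0.163% of all genes were DE.

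Against the Control diet, none of the 9 genes was called in liver under any treatment, and the lowest adjusted p was 0.0869. Over all genes 0.322% were DE with Gl-1, 0.584% with Gl-2 and 0.358% with simvastatin. The lowest value belonged to Acot3 in HCD+Sim, which lay above the Control arrays of 7.15, 7.36 and 7.05 without overlap, by 0.72 (SE 0.22). Acot1 differed from Control by 0.68 in HCD+Sim (adjusted p = 0.116) and by 0.60 in HCD+Gl-2 (adjusted p = 0.144), and by 0.32 in HCD+Gl-1 (adjusted p = 0.459).

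Liver was also compared between treatments. The 2 extracts were given at the same 1.0%, and Gl-2 against Gl-1 called none of the 9 genes, where 0.172% of all genes were DE. Acot7 came nearest, with 8.58, 8.54 and 8.69 in HCD+Gl-2 against 8.17, 8.30 and 8.25 in HCD+Gl-1, arrays that did not overlap, and a difference of 0.37 (SE 0.11, 95% interval 0.14 to 0.59, adjusted p = 0.0527). Acot4 differed by 0.36 (95% interval 0.03 to 0.69, adjusted p = 0.207) and Acot13 by -0.21 (95% interval -0.39 to -0.03, adjusted p = 0.18), and these 3 were the genes at an unadjusted p under 0.05, against 19.8% of all genes. For Acot1 and Acot3 the interval ran from -0.16 to 0.72 and from -0.16 to 0.71. Gl-1 against simvastatin, agents given at different doses, called 0 of 9, where 0.249% of all genes were DE. Acot3 was at -0.54 (95% interval -0.98 to -0.10, adjusted p = 0.141), Acot4 at -0.40 (adjusted p = 0.15) and Acot7 at -0.26 (adjusted p = 0.164), the 3 genes at an unadjusted p under 0.05, against 21.3% of all genes. Gl-2 against simvastatin called 0 of 9, with 0 of 9 at an unadjusted p under 0.05, against 0.285% of all genes DE and 12.2% at an unadjusted p under 0.05. The interval was -0.51 to 0.36 for Acot1, -0.70 to 0.18 for Acot3 and -0.37 to 0.29 for Acot4.

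**Figure D4:**
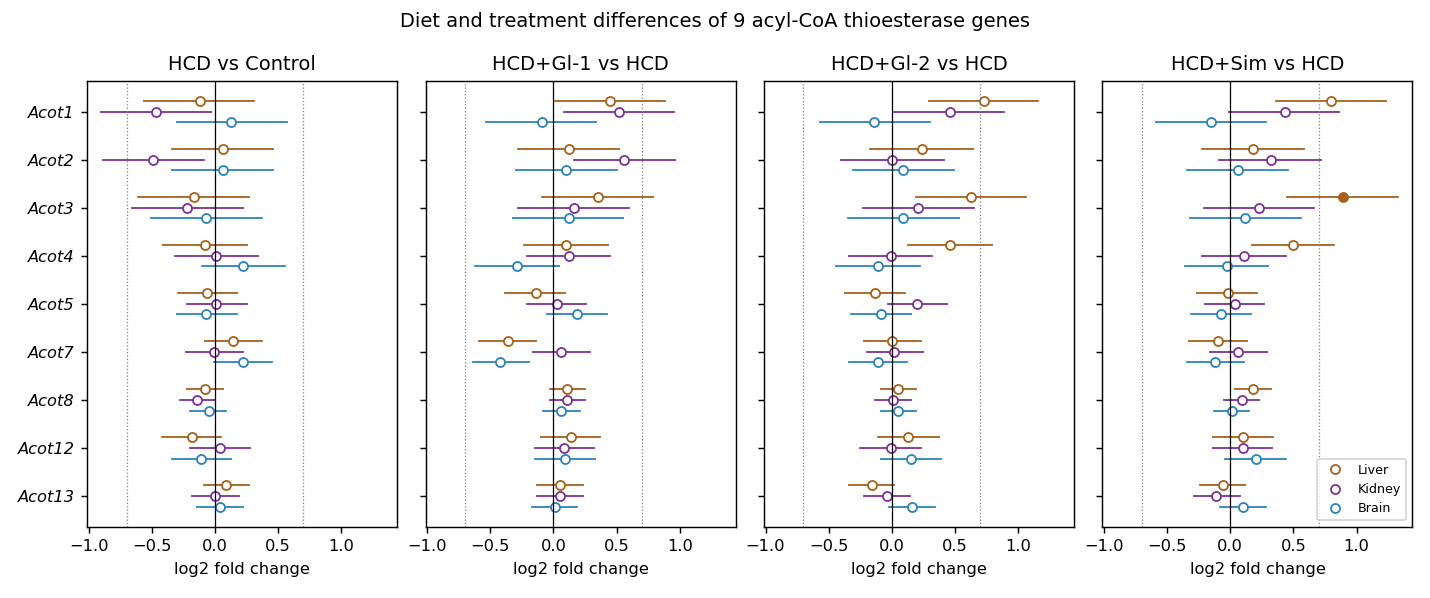
Log2 fold change (horizontal axis) of the 9 genes in liver, kidney and brain for HCD against Control and for each treatment against HCD, with 95% intervals from the fit as lines, dotted lines at the fold threshold of 0.7 and a filled circle where a gene was called. The filled circle is Acot3 in liver under simvastatin at 0.89, and the 107 other results are open circles.

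Across the liver arrays Acot1, Acot2, Acot3 and Acot4 varied together, and Acot5, whose values were dim, did not vary with them. Pairs of the former had r between 0.63 and 0.93, and those of Acot5 with each of them r between -0.14 and -0.08. Acot12, on chromosome 13, also varied with Acot1, Acot2, Acot3 and Acot4, with r of 0.59, 0.68, 0.63 and 0.55. After group means were removed these were 0.77, 0.84, 0.86 and 0.76, and those of Acot13 were 0.67, 0.76, 0.68 and 0.54. Acot7 and Acot8 had r between -0.06 and 0.44 with the same genes. Varying together was thus not particular to the cluster. Acot1 and Acot3 correlated with r = 0.93 over the 15 liver arrays and 0.89 after group means were removed, Acot3 and Acot4 with 0.88 and 0.82, and Acot2 and Acot4 with 0.77 and 0.83. Pool C is described as a mix of A and B, so the 15 arrays may rest on fewer separate pools, and r is given as a description. In kidney Acot1 and Acot3 correlated with 0.84, but Acot3 and Acot4 with 0.01, and in brain, where these genes were low, with 0.28 and 0.27. The pool letters were part of this pattern. In the livers of all 3 treated groups, 6 of the 9 genes (Acot1, Acot2, Acot3, Acot4, Acot12, Acot13) were lowest in pool B throughout. Pool C, the mix by the methods, lay between pools A and B in 29 of the 135 combinations of gene and group, or 21.5%, against 28.3% over all genes. For Acot1 in liver it was the highest array in all 5 groups. The shares of all genes lowest in pool B in the treated livers, or highest in pool C, were not counted. These orders are therefore not shown to be particular to the thioesterases.

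In kidney none of the 9 genes was called, and the pair with the largest differences was Acot1 and Acot2. The lowest adjusted p in the 4 kidney comparisons was 0.524 and the largest difference 0.56. Acot1 measured 7.77, 7.75 and 7.66 in HCD against 8.29, 8.20 and 8.08 in Control, a difference of -0.47 (SE 0.21, unadjusted p = 0.0365, adjusted p = 1). Acot2 measured 10.45, 10.51 and 10.34 against 10.99, 11.16 and 10.61, a difference of -0.49 (SE 0.20, unadjusted p = 0.0188, adjusted p = 0.913). The HCD arrays of both genes lay below all Control arrays. Those of Acot3 (7.94, 7.84 and 7.86 against 8.04, 8.24 and 8.03) and Acot8 (7.67, 7.69 and 7.69 against 7.77, 7.84 and 7.86) did so by smaller amounts, -0.22 and -0.14. In all, the arrays of 4 of 9 genes did not overlap, against 13.2% of all genes, 2 of 9 had an unadjusted p under 0.05, against 4.47%, and 0.0408% of all genes were DE.

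HCD+Gl-1 kidney had levels of Acot1 and Acot2 near those of Control. Acot1 measured 8.28, 8.10 and 8.35, or 0.52 above HCD (SE 0.21, adjusted p = 1), and Acot2 measured 11.08, 11.15 and 10.76, or 0.56 above HCD (SE 0.20, adjusted p = 0.649). All 9 differences were above 0, from 0.03 to 0.56, against 55.4% of all genes above 0. The arrays of 4 of 9 (Acot1, Acot2, Acot8, Acot12) did not overlap, against 13.8% of all genes. At an unadjusted p under 0.05 there were 2 of 9, against 4.00% of all genes, and 0.131% of all genes were DE. In HCD+Gl-2 kidney Acot1 measured 8.25, 7.85 and 8.45, or 0.46 above HCD (SE 0.21, adjusted p = 0.524). Acot2 in the same group measured 10.44, 10.16 and 10.72, level with HCD (difference 0.00, 95% interval -0.40 to 0.41). Acot1 was the 1 gene of 9 with an unadjusted p under 0.05, against 8.97% of all genes, and 0.335% were DE. In HCD+Sim kidney Acot1 measured 8.11, 7.98 and 8.37, or 0.43 above HCD (SE 0.21, adjusted p = 0.818), and Acot2 0.32 above it (SE 0.20, adjusted p = 0.874). None of the 9 reached an unadjusted p under 0.05 there, against 6.19% of all genes, and 0.140% were DE.

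**Figure D5:**
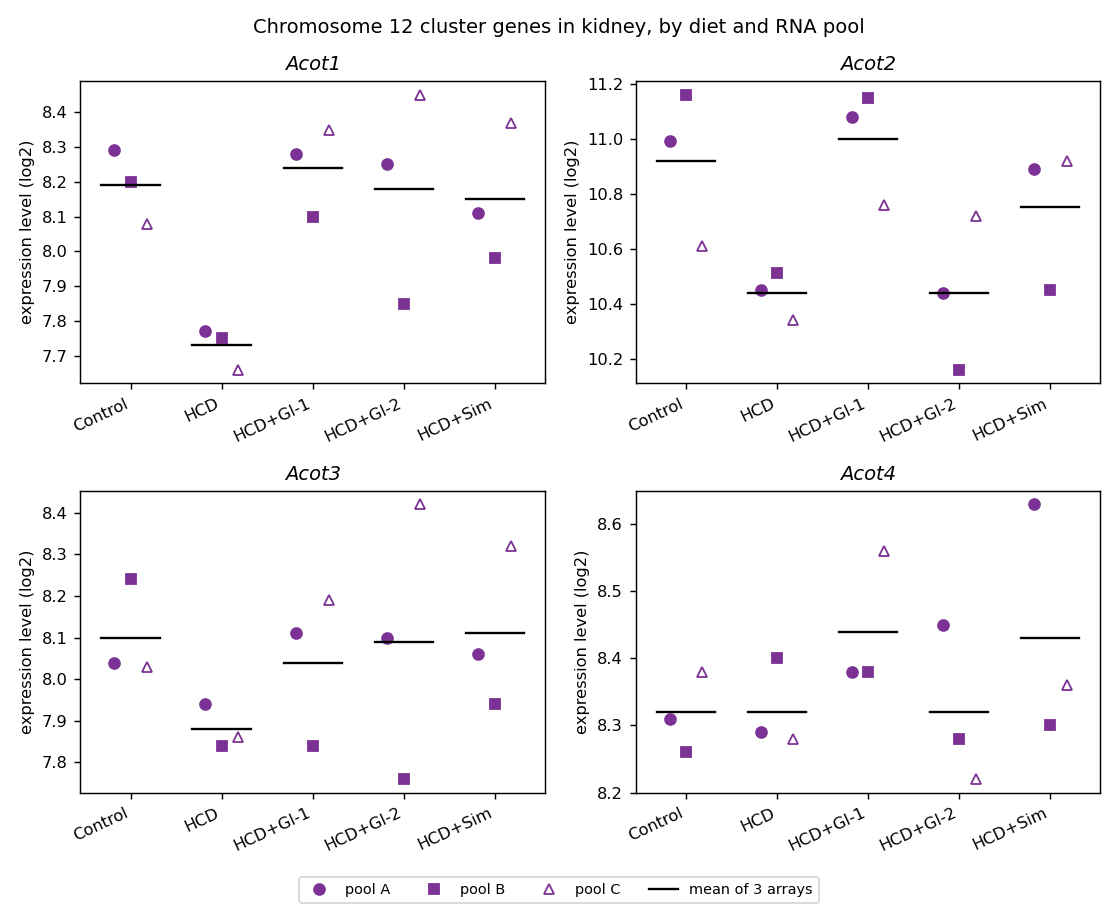
Log2 level of Acot1, Acot2, Acot3 and Acot4 in kidney by diet, with pool A as filled circles, pool B as filled squares, pool C as open triangles and the mean of the 3 arrays as a line; each panel has its own axis range. The HCD arrays of Acot1 lay between 7.66 and 7.77 and those of Acot2 between 10.34 and 10.51, below all Control arrays of the same gene.

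In brain none of the 9 genes was called in any of the 36 results, and the largest difference was 0.42. It belonged to Acot7, the gene with its highest level there. Acot7 measured 11.01, 10.96 and 11.05 in HCD, 10.80, 10.71 and 10.26 in HCD+Gl-1 and 10.85, 10.78 and 10.73 in Control. HCD+Gl-1 lay below HCD without overlap (log2 difference -0.42, SE 0.11, unadjusted p = 0.000617, adjusted p = 0.29), and its pool C was the lowest of all 15 brain arrays. With 1 array left out this difference ran from -0.52 to -0.25, the smallest in size being that without pool C of HCD+Gl-1. HCD exceeded Control by 0.22, also without overlap (SE 0.11, adjusted p = 0.787). HCD+Gl-2 spread from 10.59 to 11.24 around the HCD level. Acot7 in HCD+Gl-1 was the 1 result of the 36 with an unadjusted p under 0.05: HCD against Control, HCD+Gl-2 and HCD+Sim had 0 of 9 each. Over all genes that share was 6.44% for HCD against Control, 5.55% for HCD+Gl-1, 6.65% for HCD+Gl-2 and 5.53% for HCD+Sim. DE genes made up 0.0317%, 0.00906%, 0.0226% and 0% of all genes in the same order. Brain values of Acot1, Acot3, Acot4, Acot5 and Acot12 were at most 6.24 on the log2 scale.

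Whether a gene responded differently in liver than in kidney or brain was tested as a difference of differences in the same fit. None of the 72 results had an adjusted p of at most 0.05, and the lowest was 0.237. Over all genes the share at that adjusted p between liver and kidney was 0.263% for HCD against Control, 0.389% for Gl-1, 0.625% for Gl-2 and 0.299% for simvastatin, each against HCD. Between liver and brain it was 0.326%, 0.362%, 0.598% and 0.0996% in the same order. Acot3 under simvastatin differed by 0.66 between liver and kidney (SE 0.31, 95% interval 0.04 to 1.28, adjusted p = 0.478) and by 0.77 between liver and brain (SE 0.31, adjusted p = 0.455). Acot1 differed between liver and brain by 0.95 for simvastatin (adjusted p = 0.281) and by 0.86 for Gl-2 (adjusted p = 0.237). The response of Acot7 to Gl-1 differed by -0.43 between liver and kidney (adjusted p = 0.303). The liver call of Acot3 is thus not shown to be particular to liver.

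Genes that share substrates or control with the thioesterases were counted from lists. The median log2 fold change of the 9 genes in liver was -0.08 for HCD, 0.11 for Gl-1, 0.13 for Gl-2 and 0.18 for simvastatin, while the medians of all genes were -0.012, -0.013, 0.006 and 0.035. A further 10 thioesterases, among them Acot6 of the cluster, held no DE gene in any of the 4 liver or 4 kidney comparisons. Of 20 acyl-CoA synthetases, which make the substrate, Acss2, an acetyl-CoA synthetase, fell in liver with Gl-1 (-0.75, adjusted p = 7.5e-05) and Gl-2 (-0.78, adjusted p = 2.98e-05), and no other was called against HCD. None of 6 acyl-CoA binding proteins was called in these comparisons. Of 22 genes of peroxisomal beta-oxidation, Abcd2, a transporter of very long-chain acyl-CoA, fell in liver with HCD (-1.02, adjusted p = 0.000245) and none was called under a treatment against HCD.

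Other targets of PPAR alpha were called in liver and in kidney. Of 11 such genes, 3 fell in liver with HCD: Cyp4a14 by 1.45 (adjusted p = 0.0125), Cyp4a31 by 0.95 (adjusted p = 0.00721), both fatty acid omega-hydroxylases, and Pdk4, a brake on pyruvate oxidation, by 0.78 (adjusted p = 0.00979). With Gl-2 and with simvastatin 4 of the 11 were higher than in HCD liver, each time Cyp4a10, Cyp4a14, Cyp4a31 and Cyp4a32, all of the Cyp4a family. With Gl-1 none of the 11 was called, but their median log2 fold change was 0.41, against 0.33 with Gl-2 and 0.6 with simvastatin. Over all genes 0.245% were DE in liver for HCD against Control. Against HCD the share was 0.163% for Gl-1, 0.303% for Gl-2 and 0.258% for simvastatin. Cyp4a14 rose by 1.54 with Gl-2 and by 2.42 with simvastatin (adjusted p = 2.96e-05 for simvastatin). Its arrays in HCD+Sim liver, 11.53, 10.63 and 12.00, and in HCD, 9.38, 7.88 and 9.64, were lowest in pool B in both groups, as were those of Acot1. In kidney Angptl4, an inhibitor of lipoprotein lipase, fell with HCD by 0.76 (adjusted p = 0.00341), and Pdk4 was higher than in HCD by 1.1, 0.71 and 0.95 with Gl-1, Gl-2 and simvastatin. None of 6 regulators (Ppara, Ppard, Pparg, Rxra, Hnf4a, Ppargc1a) was called in these liver and kidney comparisons, and Ppara itself differed from HCD liver by 0.20, 0.19 and 0.12. By the adjusted p alone, 1 of the 6 was higher in HCD than in Control liver, by 0.65, under the fold threshold.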

How the data were processed

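RNA of liver, kidney and brain was hybridised to Affymetrix Mouse Gene ST v1.0 arrays. The deposited values are log2 expression values, which the authors made by RMA background correction, quantile normalization with oligo and ComBat. Where several probe sets measured a gene, they retained that of largest interquartile range. The batches given to ComBat are not given in the sources used here, and such a correction can change differences and their spread. Groups came from the sample labels. All 45 arrays entered a single limma fit (limma 3.58.1, R 4.3.3) on 15 group means, with 30 residual degrees of freedom, 7.34 added by empirical Bayes moderation and Benjamini-Hochberg adjustment over the 22080 genes of each comparison. The code was tested on simulated data. Arrays hold no read depth, and their number limits the precision. Among the gene names 13 read as dates and were not named. Named genes were the 9 members, the genes of each list that were DE in the comparison described (at most 4), the 3 genes most correlated with each member over the liver arrays, and marker genes. The members and lists were chosen with earlier results of these data known, so no list serves as independent support. Alternatives were other fits and filters, pool subsets, the pool letter as a block and each array left out, and the closing section names those chosen after seeing the data. Results of some listed genes are not reported here. Promoters came from RefSeq (GRCm38.p6). Plots were made in Python 3.11.15 with matplotlib 3.10.9.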

Additional observations from a re-analysis of the deposited data

How the results depend on the processing

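Only liver counts of called genes moved by more than 1.5 times, apart from liver against kidney on Control, where 7 rather than 4 genes passed on the adjusted p alone. For HCD+Sim against HCD, 1 gene was called. The count was 0 in a fit on the 15 liver arrays, in a fit on the compared groups only, with pools A and B only and with pools B and C only. It was 2 with genes under 6 left out, and 3 with pools A and C only. Leaving out 1 array in turn gave 0 to 2. For HCD+Gl-2 against HCD, HCD+Gl-2 against Control and HCD+Sim against Control, 0 genes were called, 3 each with pools A and C only, and 0 to 2 with 1 array left out, with the 2 called without pool B of the treated group. No count is given for the fit without both HCD+Sim pools A and B, which rests on pool C alone in that group. The difference between the liver and brain responses called 1 gene with pools A and C only, for Gl-2 and for simvastatin, and 0 to 1 for Gl-2 with 1 array left out. The subsets of pools A with C and B with C, the fit without both HCD+Sim pools, and all alternatives for treatments against each other or against Control and for differences between tissues in response were chosen after seeing the data. The pool letters pair arrays by number only: no comparison with HCD or between tissues had all 3 correlations of deviations over 0.1. With the pool letter as a replicate block, 2 genes were called for HCD+Sim against HCD (Acot1 with an adjusted p of 0.00983, Acot3 with 0.00337), 1 for HCD+Gl-2 against HCD (Acot1, 0.0153) and 1 for HCD+Sim against Control (Acot3, 0.0179), and no other count changed. For liver HCD+Gl-2 against HCD+Gl-1 and against HCD+Sim, correlations were 0.142 to 0.265 and 0.115 to 0.195, and the block changed no call. Trend and robust moderation and quantile normalization again within the tissue changed no count. No called difference changed sign. Of 261 differences of single genes, 100 changed sign in at least 1 alternative, none of which was called. The cause of these changes was not tested. Arrays of 2 separate RNA pools per group set the limit on what the comparisons can show.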

Other observations

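The genes whose liver pattern was most like that of each thioesterase are given by Pearson's r over the 15 liver arrays, as a description, since these arrays share pooled RNA and the genes were picked from 22080 for their r. Acot1 was closest to Retsat, a retinol saturase, with r = 0.93 (0.95 after group means were removed), then to Pvr (0.90) and Hspb1, a small heat shock protein (0.89). Acot3 was closest to Abhd6, a monoacylglycerol lipase, with r = 0.92, and then to the same Retsat and Pvr (0.90 each). Acot4 was closest to Pdzrn3 (0.90), Adamts1 (0.89) and Hlx (0.88), and Acot2 to Urb2 (0.88), Pgap1 (0.87) and Chd2 (0.85). Outside the cluster, Acot7 was closest to Rnf10 (0.92), Atxn2l (0.90) and Plekha7 (0.89), and Acot8 to Mbtps1, the protease that activates SREBP (0.90), Ube2v1 (0.84) and Tapbp (0.83). Acot12 was closest to Trim25 (0.93), Tgoln1 (0.91) and Supt6 (0.90). Acot13 was closest to Mrps31, 2700060E02Rik and Mut, methylmalonyl-CoA mutase (0.93 each). For Acot5, whose values were dim, the closest were Tst, Ccnd3 (0.85 each) and Tespa1 (0.83).

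Acot11, a thioesterase known from brown fat that is not among the 9 genes and was named after its values were seen, measured 7.93, 7.87 and 7.97 in liver HCD against 7.42, 7.36 and 7.56 in Control. It differed by 0.48 with an adjusted p of 0.00577 in limma, under the fold threshold. Of the 10 further thioesterases it was the 1 that was higher at an adjusted p of 0.05 or less. Another 1 was lower at that adjusted p, also under the fold threshold.

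Clock genes were called in liver as well. Against Control, 4 of 7 late clock genes were DE and higher in HCD+Gl-2 and 2 of 5 early clock genes DE and lower. The mean of 7 late clock genes was 8.95 in Control, 9.30 in HCD, 9.39 in HCD+Gl-1, 9.72 in HCD+Gl-2 and 9.44 in HCD+Sim, and that of 5 early clock genes was 7.84, 7.50, 7.43, 7.23 and 7.43. Their part in the thioesterase values was not tested. The mean of 7 adipose markers was 6.14 in liver HCD and 6.22 in HCD+Sim, with 0 of 7 DE between them.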
